A study of Mus musculus with 16 samples.

Results

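Chromatin accessibility was examined around 10 genes that encode the subunits of the transcription factor NF-kB (Nfkb1, Nfkb2, Rel, Rela and Relb), inhibitory and atypical IkB proteins (Nfkbia, Nfkbie and Nfkbiz), the ubiquitin-editing enzyme A20 (Tnfaip3) and its binding partner Tnip1. Overlapping peaks of 4 ATAC-seq peak lists were merged into 37648 regions, and every region whose midpoint lay at most 100 kb from the transcription start site (TSS) of any of the 10 genes was taken. This gave 140 regions, each near only 1 of the 10 genes. The choice used distance alone and no score, but a region exists only where a peak was called in at least 1 list.

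The cells were bone marrow-derived macrophages of female C57BL/6J mice aged 8 to 10 weeks, grown with L-cell conditioned medium, deprived of serum for a day and used on day 8. They received DMSO (Veh) or the liver X receptor (LXR) agonist T0901317 at 500 nM (T0) for 3 h, and further cultures of either kind then received lipopolysaccharide at 10 ng/mL for 2 h more in the same medium (LPS and T0-LPS). ATAC-seq, a method that marks open DNA by transposase insertion, was run on 50000 cells per library with 4 libraries per group, and the peaks were called on the 4 libraries of a group together. Each group was therefore a single list, no value below has a replicate check, no test was possible, and a comparison of a list with LPS against a list without it also compared culture times 2 h apart.

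NF-kB dimers are held in the cytoplasm of resting macrophages by IkB proteins. Toll-like receptor 4, the receptor for LPS, activates the IkB kinase complex, IkB is degraded, and the dimers enter the nucleus and bind kappaB sites. The genes described here include classical NF-kB targets that form the feedback loops of the pathway, since IkB-alpha (Nfkbia) and A20 restrain the signal that induced them. LXR is a nuclear receptor for oxysterols that limits inflammatory gene expression in macrophages.

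Terms were used as follows. A region was LPS-gained when it held a peak in the LPS list and none in the Veh list, and LPS-lost in the opposite case. T0-gained and T0-lost compared the T0 list with the Veh list in the same way. The score of a peak grows with sequencing depth, so it was turned into a percentile, the share of peaks of the same list that scored lower. A region with a peak in both lists rose or fell when its percentile differed by 20 points or more. Values given "with both" are those of the T0-LPS list. Distances are from the TSS to the middle of the region, positive downstream along the gene.

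The sequences that bear on the LPS comparison are those around NF-kB consensus matches in regions that were LPS-gained or rose with LPS. Of 39 such regions, 12 held a match in their central 200 bp. The 8 with the highest LPS scores are shown, each as 100 bases of GRCm38 with the bases covered by a consensus match in capitals, read along the strand stated and free of annotated untranslated sequence.
Tnfaip3 region at +50637 bp, window chr10:18965043-18965142, plus strand: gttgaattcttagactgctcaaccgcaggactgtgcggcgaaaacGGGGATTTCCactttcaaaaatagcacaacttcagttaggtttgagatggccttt
Rel region at +16589 bp, window chr11:23754372-23754471, plus strand: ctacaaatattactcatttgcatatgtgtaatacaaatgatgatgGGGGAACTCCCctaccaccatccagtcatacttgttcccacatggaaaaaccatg
Tnip1 region at -60321 bp, window chr11:55023240-55023339, plus strand: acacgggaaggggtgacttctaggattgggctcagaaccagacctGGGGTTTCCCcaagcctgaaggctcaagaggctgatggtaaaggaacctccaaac
Nfkb1 region at +51167 bp, window chr3:135640310-135640409, minus strand: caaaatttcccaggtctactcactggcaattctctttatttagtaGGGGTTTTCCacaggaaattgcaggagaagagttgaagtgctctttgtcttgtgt
Nfkb1 region at +20690 bp, window chr3:135670725-135670824, minus strand: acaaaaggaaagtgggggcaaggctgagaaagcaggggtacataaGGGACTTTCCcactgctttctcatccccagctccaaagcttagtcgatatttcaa
Tnip1 region at -151 bp, window chr11:54962942-54963041, plus strand: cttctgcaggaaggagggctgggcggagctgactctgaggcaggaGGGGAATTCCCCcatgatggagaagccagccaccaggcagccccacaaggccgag
Tnip1 region at -9647 bp, window chr11:54972516-54972615, plus strand: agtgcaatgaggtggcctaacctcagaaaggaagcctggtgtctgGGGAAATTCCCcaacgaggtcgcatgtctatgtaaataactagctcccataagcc
Nfkbie region at +1867 bp, window chr17:45557545-45557644, plus strand: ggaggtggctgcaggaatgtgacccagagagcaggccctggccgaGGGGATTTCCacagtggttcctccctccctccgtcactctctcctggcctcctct
The Rel and the Tnip1 windows at -151 and -9647 bp held overlapping matches, which lengthen the capital run beyond 10 bases. The decamer GGGGATTTCC stood in both the Tnfaip3 and the Nfkbie window.

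LPS was accompanied by new peaks near these genes. Of 125 regions with an LPS peak, 23 were LPS-gained (18.4%, Wilson 95% interval 12.6 to 26.1%), against 6.14% of all regions with an LPS peak. The interval covers counting error only, as do all intervals below. Of the 102 regions with a peak in both lists, 16 rose (15.7%, interval 9.89 to 24.0%), against 3.92% of all such regions. Both shares lay above the background, and the lower bounds of both intervals did too.

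Fewer regions went the other way. Of 115 regions with a Veh peak, 13 were LPS-lost (11.3%, interval 6.73 to 18.4%), against a background of 13.0%. A fall with LPS was seen in 6 of 102 shared regions (5.88%, interval 2.72 to 12.2%), against 9.14%. Both intervals included the background. Over the shared regions the median percentile change from Veh to LPS was 0.07 points, against -2.01 points over all regions.

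**Figure D1:**
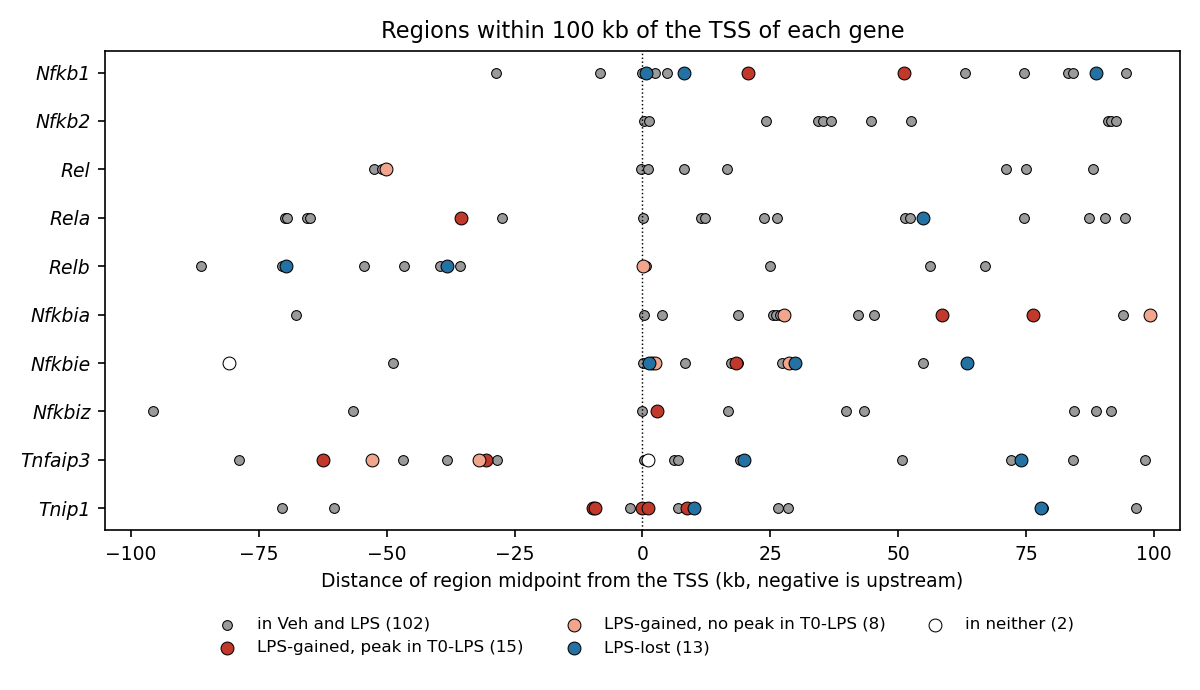
Each point is 1 of the 140 regions, placed by the distance in kb of its midpoint from the TSS of the gene on its row, and coloured by its presence in the Veh, LPS and T0-LPS lists. LPS-gained regions (23 in all, of which 15 also held a T0-LPS peak) lie near 9 of the 10 genes, with none near Nfkb2.

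The LPS-gained regions were spread unevenly over the genes. Tnip1 had 5, Nfkbia, Nfkbie and Tnfaip3 had 4 each, Nfkb1 had 2, Rel, Rela, Relb and Nfkbiz had 1 each, and Nfkb2 had 0. By role, 5 lay near the subunit genes (of 61 regions with an LPS peak), 9 near the IkB genes (of 35) and 9 near Tnfaip3 and Tnip1 (of 29). The share over all regions with an LPS peak was 6.14%, and the subunit genes lay closest to it. Of the 23, 17 had the gene itself as the nearest protein-coding TSS, 8 lay inside the gene and 9 within 10 kb of its TSS.

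The strength of the LPS-gained peaks ranged from a score of 47 to 612, with a median of 134, and 18 of 23 were below the median of the LPS list. Of all 2002 LPS-gained regions, 1857 were below the median of that list. A peak can be missing from a list because the authors kept only peaks at macrophage enhancers. Gaps in the numbers of the peak names were taken to mark places where a peak had been removed. For 17 of the 23 the flanking Veh peaks had consecutive numbers, which by this reading leaves no place for a removed Veh peak. For the other 6 at least 1 number was missing, and a removed Veh peak could have lain at the region or elsewhere between its neighbours. Of all 2002 LPS-gained regions, 1227 had flanking Veh peaks with consecutive numbers.

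Nfkb1 encodes the precursor of the p50 subunit. Its region at -86 bp had a percentile of 63.1 in Veh, 68.0 in T0, 83.1 in LPS and 75.0 with both. The difference from Veh to LPS, 19.9 points, was just under the size called a rise. A pair of regions in its introns held the highest-scoring LPS-gained peaks near any of the 10 genes. At +51167 bp the score was 612 in LPS (percentile 79.5) and 366 in T0-LPS (60.4), with no peak in Veh or T0. At +20690 bp it was 515 in LPS (71.8) and 328 in T0-LPS (55.4), again with none in Veh or T0. The latter region lay at -3058 bp from another annotated transcript start of Nfkb1.

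These intronic regions carried the matches GGGGTTTTCC and GGGACTTTCC shown above. Both sat where the Veh list left 1 number between neighbours, so a removed Veh peak was possible there, while the T0 list left none. Another 5 regions of Nfkb1 lacked a peak in at least 1 list, and all 5 had a Veh peak and no T0 peak. The strongest of these, at +2400 bp, had a score of 218 in Veh, 186 in LPS and 166 in T0-LPS. Of the regions in all 4 lists, that at +4874 bp rose most, from 25.5 in Veh to 46.8 in LPS, with 12.8 in T0 and 27.1 in T0-LPS. The lowest change was at +94401 bp, from 86.2 to 78.3. From Veh to T0 the changes ran from 4.88 points at the TSS to -18.7 at -28578 bp, where the percentile was 67.5 in Veh and 48.8 in T0.

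Nfkb2 encodes the precursor of the p52 subunit of the alternative pathway. Its TSS region at +234 bp was nearly level over the lists, at 60.3 in Veh, 54.6 in T0, 59.4 in LPS and 58.5 with both. An intronic region at +1273 bp rose, from 11.6 in Veh and 5.81 in T0 to 44.2 in LPS and 43.3 in T0-LPS. Its midpoint lay at -103 bp from another annotated transcript start of Nfkb2, so it covered an alternative promoter. This gene had no LPS-gained or LPS-lost region, and 10 of its 11 regions were in all 4 lists. The exception, at +34401 bp, lacked only the T0 peak and scored 92 in Veh, 94 in LPS and 72 in T0-LPS.

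Elsewhere in the Nfkb2 window the lowest change with LPS was at +35284 bp, from 37.0 to 24.6. From Veh to T0 the changes ran from 6.03 points at +92565 bp to -17.1 at +44695 bp. The window held the TSSs of 8 protein-coding genes, and only 2 of the 11 regions had the TSS of Nfkb2 as the nearest.

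Rel encodes c-Rel, a subunit abundant in blood cells. Its promoter region at -202 bp was strong in every list, at 85.6 in Veh, 75.2 in T0, 83.2 in LPS and 80.6 with both. Its intronic region at +16589 bp, shown above, rose from 52.8 in Veh to 81.5 in LPS, with 45.7 in T0 and 73.0 in T0-LPS. The region at +71128 bp, in an intron of the neighbour Pus10, fell from 40.4 in Veh to 3.06 in LPS, with 12.8 in T0 and 15.9 in T0-LPS. That was also its largest fall from Veh to T0, 27.6 points. The smallest change from Veh to T0 was -5.19 points at +88015 bp, which turned to 6.91 points when regions in all 4 lists were ranked against each other.

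The single LPS-gained region of Rel, at -50150 bp, scored 171 in T0 and 127 in LPS and was missing from Veh and T0-LPS, with 3 and 2 numbers absent between neighbours. The region at +1158 bp scored 152 in Veh and 143 in LPS and was missing from both lists with T0. At +74892 bp, also within Pus10, the percentile was 24.6 in Veh, 12.8 in T0, 50.0 in LPS and 8.77 with both, so it rose with LPS and fell between LPS and T0-LPS.

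Rela encodes p65, the main transactivating subunit. Its TSS region at +53 bp stood at 58.5 in Veh, 50.5 in T0, 50.0 in LPS and 51.8 with both. The largest change upwards with LPS was from 28.9 to 44.8 at +12131 bp, below the size called, but 22.5 points when regions in all 4 lists were ranked against each other. Its LPS-gained region at -35531 bp, in an exon of Rnaseh2c, scored 179 in LPS and 125 in T0-LPS, with 1 number absent between the neighbouring Veh peaks. The region at -65457 bp had the largest fall near Rela in both contrasts, from 45.2 in Veh to 9.22 in T0 and 21.9 in LPS, with 29.7 in T0-LPS.

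Of the other Rela regions missing from a list, that at +54831 bp scored 133 in Veh and was in no other list, and that at +90378 bp scored 85 in Veh, 110 in LPS and 72 in T0-LPS. The last of the 4 lacked the T0 peak only. The largest change upwards from Veh to T0 was 10.4 points at +52230 bp. The window held 13 protein-coding TSSs, the most of the 10, and 3 of its 18 regions were nearest to that of Rela.

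Relb encodes the transactivating subunit of the alternative pathway. Its strongest region near the start, at +743 bp, was at 87.8 in Veh, 90.0 in T0, 88.8 in LPS and 94.9 with both. The region closest to the TSS, at +91 bp, held a peak only in LPS, with a score of 97. The largest rise among regions in all 4 lists was 14.1 points at +25003 bp, below the size called (20.8 when such regions were ranked against each other), and the largest fall was at -46580 bp, from 51.2 in Veh to 21.0 in LPS. Among the same regions, the changes from Veh to T0 ran from 2.20 points at +743 bp to -18.4 at -54491 bp. Of 7 regions missing from at least 1 list, the strongest, at -39649 bp, scored 215 in Veh, 245 in T0 and 148 in LPS. At -70370 bp the score was 142 in Veh and 112 in LPS, and at -69669 bp, by the neighbour Apoe, 133 in Veh and 92 in T0. The window held 12 protein-coding TSSs, and 2 of the 13 regions were nearest to that of Relb.

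Nfkbia encodes IkB-alpha, the inhibitor that is resynthesised after activation. The region over its TSS, at +261 bp, rose from 45.0 in Veh to 69.8 in LPS, with 61.2 in T0 and 66.4 in T0-LPS. It was thus lowest in Veh, and its change from Veh to T0, 16.2 points, was the largest upwards near this gene. That change was 28.9 points when regions in all 4 lists were ranked against each other. The region at +3822 bp, beyond the end of the gene, fell from 62.2 in Veh to 20.2 in LPS, with 49.5 in T0 and 5.51 in T0-LPS. At +18598 bp the percentile was 51.6 in Veh, 17.1 in T0, 54.8 in LPS and 51.0 with both, the largest fall with T0 near Nfkbia, while the change from LPS to T0-LPS there was -3.84 points.

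All 4 LPS-gained regions of Nfkbia were weak and lay downstream of the gene. Those at +76340 bp and +58535 bp scored 134 and 104 in LPS and 110 and 88 in T0-LPS. Those at +99263 bp and +27608 bp scored 93 and 78 and were in the LPS list only. No number was absent between the neighbouring Veh peaks at any of the 4, and 3 of them were nearest to the TSS of Psma6. The fifth region missing from a list, at -67655 bp, scored 216 in Veh, 149 in LPS and 166 in T0-LPS and lacked a T0 peak, where 4 numbers were absent.

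Nfkbie encodes IkB-epsilon. Its TSS region at +32 bp was weak in each list, at 26.2 in Veh, 12.8 in T0, 19.7 in LPS and 22.9 with both. The strongest LPS-gained region, in an intron at +1867 bp, scored 210 in LPS and 206 in T0-LPS and carried the match shown above. A further intronic region at +2487 bp scored 105 in LPS only. The other LPS-gained regions, at +18246 and +28557 bp by Hsp90ab1, scored 111 and 101 in LPS. None of the 4 had an absent number in Veh.

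In all, 9 of 15 Nfkbie regions were missing from at least 1 list. At +29773 bp the score was 164 in Veh, 88 in T0 and 120 in T0-LPS with no LPS peak, and at +54800 bp it was 119 in Veh and 128 in LPS with no peak in either list with T0. Of the regions in all 4 lists, that at +17289 bp rose with LPS, from 11.5 to 36.9, and was at 11.5 again in T0-LPS. That at +18637 bp fell from 31.9 in Veh to 9.29 in LPS. The changes with T0 ran from 7.52 points at +27314 bp to -24.7 at -48709 bp.

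Nfkbiz encodes IkB-zeta, a nuclear IkB protein that acts as a cofactor for secondary response genes. Its promoter region at -113 bp rose from 69.3 in Veh to 90.3 in LPS, with 66.1 in T0 and 91.2 in T0-LPS. The region at +39832 bp rose from 46.2 to 68.2, with 63.0 in T0 and 72.3 in T0-LPS. This was the largest change upwards with T0 near any of the 10 genes, 16.8 points. The LPS-gained region at +2896 bp, in an intron, scored 162 in LPS and 130 in T0-LPS, with no absent number in Veh.

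The remaining regions of Nfkbiz that were missing from a list scored 223 in Veh, 222 in LPS and 122 in T0-LPS at +43206 bp, and 202 in Veh, 152 in T0 and 127 in LPS at +88658 bp. The largest fall with LPS was 12.4 points at +84375 bp, and with T0 19.4 points at +91542 bp, where the percentile went from 44.4 in Veh to 25.0 in T0. Neither reached the size called a fall.

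Tnfaip3 encodes A20, which removes and adds ubiquitin chains on proteins upstream of the IkB kinase. Its TSS region at +251 bp was at 53.3 in Veh, 55.4 in T0, 70.3 in LPS and 65.0 with both, a change with LPS of 17.0 points. That change was 25.1 points when regions in all 4 lists were ranked against each other. An intergenic region at +50637 bp rose from 56.4 in Veh to 90.0 in LPS, with 53.7 in T0 and 90.1 in T0-LPS. The largest rise was at +84047 bp, from 9.01 in Veh and 7.04 in T0 to 43.1 in LPS and 32.0 with both. The region at -28374 bp fell from 68.4 in Veh to 35.1 in LPS, with 58.2 in T0 and 23.6 in T0-LPS.

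The LPS-gained regions of Tnfaip3 all lay upstream. That at -30544 bp scored 397 in LPS and 265 in T0-LPS, and that at -62429 bp scored 348 and 339. Those at -52863 and -31883 bp scored 149 and 47 and were in LPS only. The neighbouring Veh peaks had consecutive numbers at all 4, and the window held no other protein-coding TSS but that of Tnfaip3. In all 8 of 19 regions were missing from at least 1 list, including that at +19911 bp, which scored 189 in Veh and 200 in T0 and was in neither list with LPS. With T0 the changes ran from 10.4 points at +6196 bp to -26.0 at +6901 bp. When regions in all 4 lists were ranked against each other, these 2 changes were 21.5 and -12.5 points.

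Tnip1 encodes a ubiquitin-binding partner of A20. The region over its TSS, at -151 bp, had no peak in Veh or T0, a score of 229 in LPS (percentile 35.3) and 224 in T0-LPS (38.5), and no absent number in either list without a peak. A region at -2513 bp was present throughout, at 64.1 in Veh, 51.4 in T0, 63.2 in LPS and 64.4 with both. In an intron at +8643 bp a peak with a score of 339 in LPS and 208 in T0-LPS was missing from Veh and T0, again with no absent number.

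The other LPS-gained regions of Tnip1 scored 223 in LPS and 219 in T0-LPS at -9647 bp, 118 and 134 at -9218 bp, and 133 and 76 at +1181 bp. The neighbours of the upstream pair left 2 numbers absent in Veh. All 5 held a T0-LPS peak. The largest rise near any of the 10 genes was at -60321 bp, in an intron of Anxa6, whose TSS is the nearest. There the percentile was 15.8 in Veh, 5.41 in T0, 80.9 in LPS and 80.7 with both.

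The strongest LPS-lost region lay in the same window. At +77806 bp, nearest to Gpx3, the score was 461 in Veh, 297 in T0 and 94 in T0-LPS, with no LPS peak and 2 numbers absent between its LPS neighbours. The lowest change with LPS among regions in all 4 lists was 13.5 points downwards at +78283 bp. From Veh to T0 these regions changed by between -5.09 points at +6880 bp and -18.6 at +78283 bp. Ranked against regions in all 4 lists alone, some turned upwards, such as that at +26497 bp with 3.99 points.

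**Figure D2:**
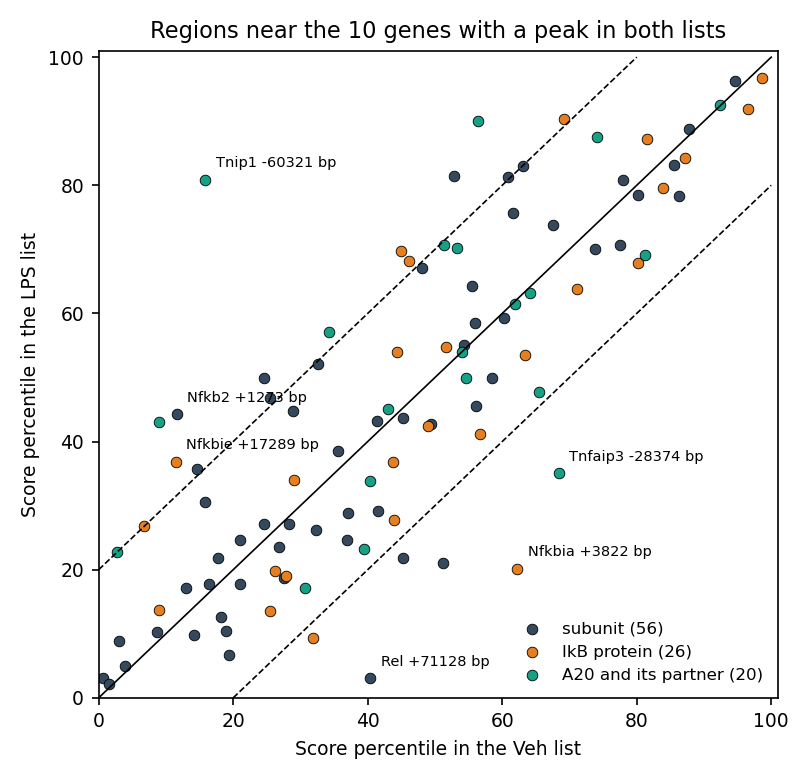
Each point is 1 of the 102 regions with a peak in both lists, with its score percentile in the Veh list on the horizontal and in the LPS list on the vertical axis, coloured by the role of the gene, with the largest rise and fall of each role named. The solid line marks equal percentiles and the dashed lines a difference of 20 points, above which 16 regions lie and below which 6 lie.

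The start sites were compared as a group, with 1 TSS taken per gene. Other transcript starts, such as that by the Nfkb2 region at +1273 bp, were not counted. All 10 genes had a region within 1 kb of the TSS. The nearest was in all 4 lists for 8 of them, against 88.0% of protein-coding genes with such a region. The nearest region was LPS-gained for 2 of 10, Tnip1 and Relb, against 1.80% of the 10915 protein-coding genes with such a region. That of Relb was a weak peak (score 97, percentile 5.72) less than 200 bp from the region at +743 bp, which was in all 4 lists. With peaks up to 200 bp apart merged, it would be part of that region and not LPS-gained. The nearest region rose with LPS for 2 more, Nfkbia and Nfkbiz, against 1.33%. When regions in all 4 lists were ranked against each other, those of Nfkb1 and Tnfaip3 also passed the size called a rise, with 27.9 and 25.1 points. The share over all genes was not counted in that ranking. None was LPS-lost.

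The number of LPS-gained regions within 100 kb was counted for 21938 protein-coding genes. At least 1 was found for 9 of the 10 genes and for 23.9% of all genes, and at least 4 for 4 of the 10 and for 0.697% of all. Genes differ in how many regions they have nearby, and the 10 had 10 to 19. Among the 5141 genes in that range, 53.3% had at least 1 and 1.91% at least 4. Lcp1 and its neighbour Lrrc63 had the most, 7 each from a shared window. Next came 39 genes tied at 5, among them Tnip1 and its neighbour Anxa6, and then 112 genes tied at 4, among them Nfkbia, Nfkbie and Tnfaip3. Windows of neighbouring genes overlap, so these counts are not independent.

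Other genes of the pathway were counted in the same way. Of 27 genes for IkB kinase subunits, further IkB proteins, upstream ligases and kinases, the alternative pathway and other deubiquitinases, 13 had an LPS-gained region. Of their 262 regions, 233 had an LPS peak and 18 of these were LPS-gained, against 6.14% of all regions. A Veh peak was held by 243, of which 28 were LPS-lost, against 13.0%. Both counts lay near the background. Cyld, a deubiquitinase, had 3 LPS-gained regions. Bcl3, a nuclear IkB protein, the deubiquitinases Otulin and Otud7b, and the A20 partner Tax1bp1 had 2 each. Chuk and Ikbkb, which encode kinases of the complex, the ligases Traf6, Birc2 and Birc3, the adaptor Tab2, the kinase Map3k14 and the A20 partner Tnip2 had 1 each, and Birc2 and Birc3 are neighbours whose windows overlap. Of 15 housekeeping genes, with 174 regions, 2 had an LPS-gained region. Among these regions, 2 of 155 with an LPS peak were LPS-gained and 18 of 171 with a Veh peak were LPS-lost.

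The T0 list lacked a number of weak Veh peaks near these genes, at a share close to that over all regions. Of 115 regions with a Veh peak, 22 were T0-lost (19.1%, interval 13.0 to 27.3%), against 18.1% of all regions. Of 95 regions with a T0 peak, 2 were T0-gained (2.11%, interval 0.579 to 7.35%), against 0.729%. Of 93 shared regions, 11 fell (11.8%, interval 6.73 to 19.9%), against 10.4%, and 0 rose (upper bound 3.97%), against 0.0762%. Each interval included the background. The 22 T0-lost regions scored 63 to 223 in Veh, all below the median of that list, and for 18 of them the T0 list had no absent number. Of all 6365 T0-lost regions, 6225 were below that median and 3982 had no absent number. T0-lost regions were found near each of the 10 genes, with 5 near Nfkb1 and 4 near Relb. Such regions also lay near 23 of the 27 other pathway genes and 11 of the 15 housekeeping genes. Of the 22, 14 lay near subunit genes, which held 62 of the 115 regions with a Veh peak. With all lists cut to the length of the shortest, 6 regions were T0-lost and 11 T0-gained, so the direction of this count depended on list length. The T0 and the LPS comparisons use the same Veh list.

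Percentiles also depend on which peaks a list holds. Over the 93 regions in Veh and T0 the median change was -8.84 points, against -5.58 over all regions, and 78 of 93 were lower in T0. Among only those regions that held a peak in all 4 lists, ranked against each other, the median change over the 87 near these genes was 0.0397 points. Ranked in this way, 44 of the 87 were higher and 43 lower in T0, 3 rose and 2 fell, so the shift downwards was not kept. Over all 26439 such regions the median change was 0.130 points, and 511 rose and 671 fell. The rises near these genes were Nfkbiz at +39832 bp, Nfkbia at +261 bp and Tnfaip3 at +6196 bp. The falls were Nfkbia at +18598 bp and Rela at -65457 bp. Peaks of the 87 were narrower in T0 than in Veh in 74 (85.1%), against 87.8% of all such regions. With LPS, 39 of 87 were narrower than in Veh (44.8%), against 69.1% of all.

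The comparison of T0-LPS with LPS asked how the agonist changed the LPS-treated state. Of 125 regions with an LPS peak, 13 had none in T0-LPS (10.4%, interval 6.18 to 17.0%), against 9.97%. Of 116 regions with a T0-LPS peak, 4 had none in LPS (3.45%, interval 1.35 to 8.53%), against 3.37%. Of 112 shared regions, 3 fell (2.68%, interval 0.915 to 7.58%), against 4.36%, and 0 rose (upper bound 3.32%), against 0.929%. None of these shares stood apart from the background by its interval. Ranked among regions in all 4 lists, 46 of the 87 near these genes were higher and 41 lower in T0-LPS, and 1 rose and 2 fell. Over all 26439 such regions, 590 rose and 631 fell. The 13 regions lost from T0-LPS scored 47 to 149 in LPS, all below the median of the LPS list. Of all 3254 regions lost in this way, 3191 were below that median.

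Most LPS-gained regions were still present with the agonist. Of the 23, 15 held a T0-LPS peak (65.2%, interval 44.9 to 81.2%), against 53.0% of all LPS-gained regions, and the interval included that share. The 8 without one were a pair each near Nfkbia, Nfkbie and Tnfaip3 and single regions of Rel and Relb, and had LPS scores of at most 149. Of the 15, 9 had a lower percentile in T0-LPS than in LPS, with a median change of -4.40 points, against -4.45 over all regions of this class. For the 16 regions that rose with LPS, 12 were lower in T0-LPS, with a median of -3.52 points against -6.91. Of these, 2 fell by at least 20 points, Rel at +74892 bp (from 50.0 to 8.77) and Nfkbie at +17289 bp (from 36.9 to 11.5). The third fall was Rel at +88015 bp, from 52.2 to 24.6. Ranked among regions in all 4 lists, both Rel falls were kept, at -34.8 and -25.3 points. The Nfkbie change was then -18.3 points, below the size called. Rela at +26254 bp rose by 20.5 points in that ranking.

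**Figure D3:**
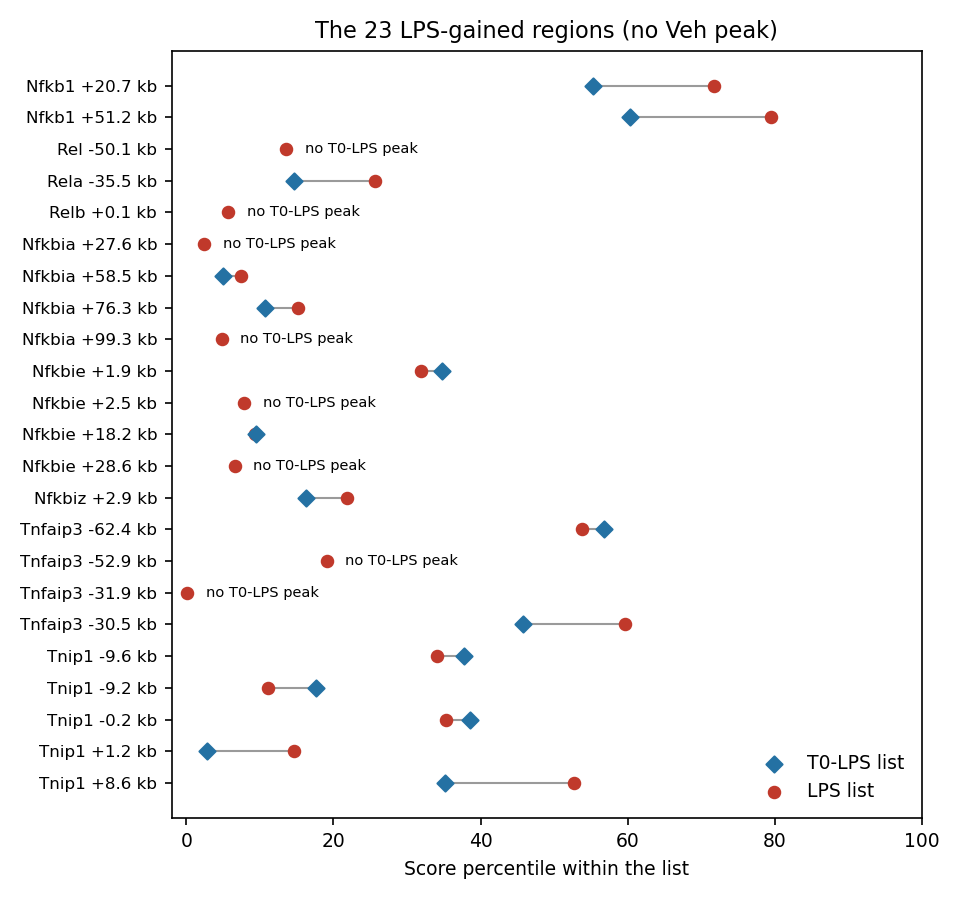
Each row is 1 of the 23 LPS-gained regions, named by gene and distance from the TSS, with its score percentile in the LPS list (circle) and, for 15 of them, in the T0-LPS list (diamond). The 5 Tnip1 regions and both Nfkb1 regions hold peaks in both lists, and the 8 rows marked as having no T0-LPS peak lie at or below the percentile of 19.1.

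Set against T0 rather than LPS, the T0-LPS list gave the effect of LPS in the presence of the agonist. Of 116 regions with a T0-LPS peak, 27 had none in T0 (23.3%, interval 16.5 to 31.7%), against 11.7%. Of 95 with a T0 peak, 6 had none in T0-LPS (6.32%, interval 2.93 to 13.1%), against 7.70%. Of 89 shared regions, 17 rose (19.1%, interval 12.3 to 28.5%), against 7.76%, and 5 fell (5.62%, interval 2.42 to 12.5%), against 5.62%. The gains and rises again lay above the background by their intervals, and the losses and falls did not.

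**Figure D4:**
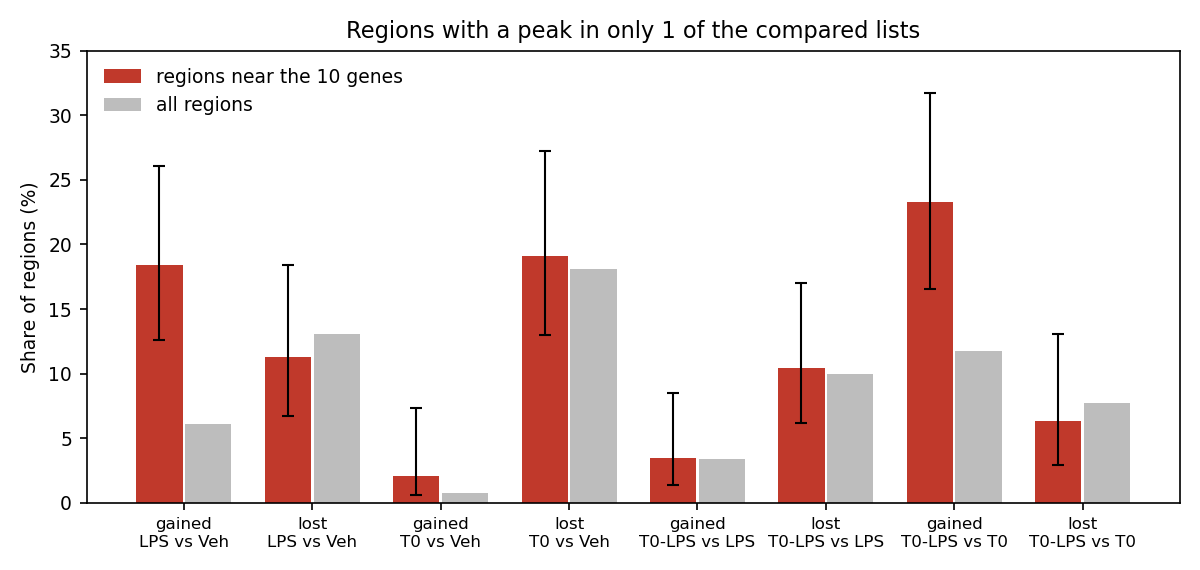
Bars give the share in percent of regions that were gained or lost in each comparison, for regions near the 10 genes (red, with Wilson 95% intervals for counting error) and for all regions (grey). Gains with LPS are 18.4% against 6.14%, and gains in T0-LPS against T0 are 23.3% against 11.7%, while the other pairs of bars lie within the intervals.

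The same regions were also counted by the presence of peaks over all 4 lists, which is a recount and not further evidence. A peak in every list was found for 87 of 140 regions (62.1%, interval 53.9 to 69.8%), against 70.2% of all. The next pattern was a peak in LPS and T0-LPS only, with 15 regions (10.7%) against 2.69% of all. These are the 15 LPS-gained regions with a T0-LPS peak described above. A further 10 lacked only the T0 peak (7.14% against 4.98%), 9 were in Veh only (6.43% against 7.73%) and 6 in LPS only (4.29% against 2.41%).

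Sequence motifs were counted in the central 200 bp of each region on both strands. The NF-kB consensus was present in 9 of the 23 LPS-gained regions (39.1%, interval 22.2 to 59.2%), against 18.1% of all 2000 LPS-gained regions on the main chromosomes. In regions that rose with LPS it was present in 3 of 16 (18.8%), against 21.1%. It was present in 5 of 80 other shared regions (6.25%), against 3.34%, and in 0 of 13 LPS-lost regions (0%, upper bound 22.8%), against 1.15%. Of the 6 regions that fell, 1 held it (16.7%, interval 3.01 to 56.4%), against 1.14% of all regions that fell. The 1 that fell was that of Nfkbia at +3822 bp. Over all 140 regions the share was 12.9% (interval 8.29 to 19.4%), against 4.30%.

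**Figure D5:**
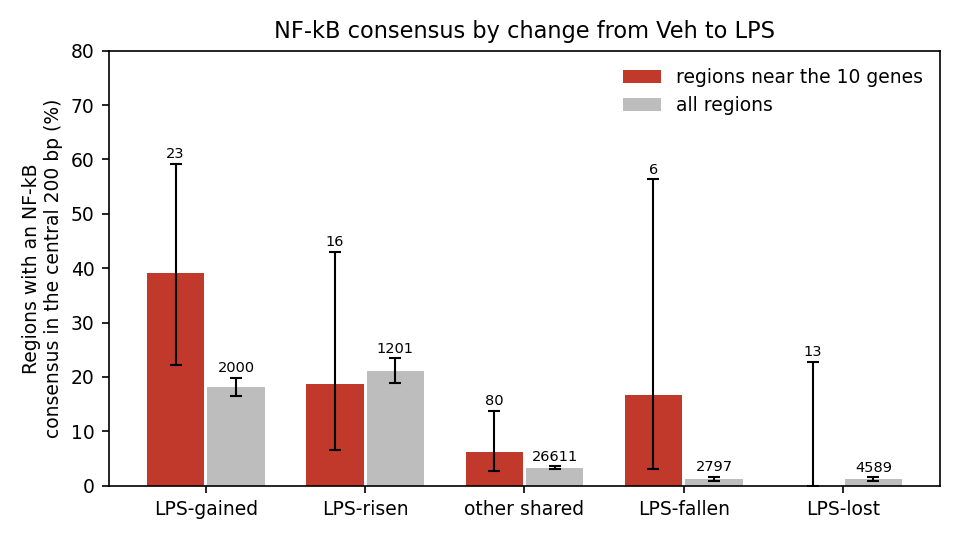
Bars give the share in percent of regions with an NF-kB consensus in the central 200 bp, by the change from Veh to LPS, for regions near the 10 genes (red) and all regions (grey), with Wilson 95% intervals and the number of regions above each bar. The share is 39.1% in LPS-gained regions near the 10 genes and 0% in the 13 LPS-lost regions.

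The LPS-gained regions with a central match were both of Nfkb1, 3 of Tnip1, 2 of Nfkbie and 2 of Nfkbia. Of these 9, 7 held a T0-LPS peak (77.8%, interval 45.3 to 93.7%), against 8 of the 14 without a match (57.1%, interval 32.6 to 78.6%). Over all LPS-gained regions the same shares were 72.7% with a match and 48.7% without. Regions with a match were also stronger, with a median LPS score of 210 against 130.5 near these genes and 174 against 119 over all regions. The part of strength in the difference was not tested.

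Counted over whole regions, 33 of 140 held at least 1 match (23.6%), against 8.46% of all regions. Among them were the TSS regions of Nfkb1, Nfkb2, Rel, Relb, Nfkbia, Nfkbie, Nfkbiz, Tnfaip3 and Tnip1. Near the TSS of Nfkbia, matches lay at -25, -269 and +685 bp, and the region of Nfkb2 at +1273 bp held GGGACATTCC and GGGACTTTCC. The RefSeq promoter table of GRCm38, with 250 bases before and 50 after the start, listed 7 of the 10 genes (all but Nfkb1, Nfkbiz and Relb), and 6 of the 7 had a match in at least 1 listed promoter, against 5.14% of 27025 genes. Some genes had several listed promoters, and Rela had no match. A match is a description of letters and not a measured binding site.

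Other motifs did not separate these regions in the same way. AP-1 (TGAGTCA or TGACTCA) was present in 3 of 23 LPS-gained regions (13.0%), against 14.1% of all such regions, and in 12 of 80 other shared regions (15.0%), against 13.2%. The PU.1 element GAGGAAGT, bound by a factor that defines macrophages, was present in 0 of 23 (upper bound 14.3%), against 6.10%, and in 6 of 80 (7.50%), against 8.21%. The AGGTCA hexamer that nuclear receptors recognise was present in 2 of 22 T0-lost regions (9.09%), against 11.8% of all T0-lost regions, and in 12 of 93 regions in Veh and T0 (12.9%), against 11.8%. DR4, a direct repeat of that hexamer with a spacer of 4 bases that LXR binds, scanned with up to 2 mismatches, was present in 0 of 22 and 2 of 93, against 1.98% and 1.91% of all such regions.

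The edge of the window was checked by the regions nearest to it. Just inside 100 kb lay a region of Nfkbia at +99263 bp (percentile 4.80 in LPS only), of Tnfaip3 at +98253 bp (2.69 in Veh and 22.8 in LPS) and of Tnip1 at +96430 bp (40.4 and 33.8). Just outside lay regions of Tnip1 at +102208 bp (89.5 in Veh and 87.0 in LPS), Nfkbia at +102737 bp (84.0 and 76.0) and Rela at +104474 bp (32.0 and 35.6). A region near a gene need not act on it, and 78 of the 140 had the TSS of the gene itself as the nearest protein-coding TSS.

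The lists held 29839 to 35551 peaks, fewest in T0 and most in Veh, and 95 to 125 of the 140 regions. Promoter peaks of 11 of 11 macrophage marker genes were present in each list. Of 6 T cell genes 1 had a promoter peak in each list, of 4 B cell genes at most 1, and of 4 fibroblast genes 1 in Veh and 0 in the others. The depth of the libraries is unknown from the lists.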

How the data were processed

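Per the labels and the study's methods, the authors trimmed reads with cutadapt, aligned them with Bowtie2 (mm10 in the submitters' processing notes), removed duplicates with SAMtools, ran MACS2 with a q-value limit of 0.001 on the 4 pooled libraries of each group, and kept peaks at macrophage enhancers marked by H3K27ac or H3K4me2. The deposited score of each peak was the authors' peak caller score, whose scale no header states, and was used only to rank peaks within a list. Peaks overlapping by at least 1 bp were merged, and a region took its highest score per list. Genes were those of GENCODE vM21 basic on GRCm38, and all 10 were found by symbol. Of 37648 regions, 37620 lay on the 21 main chromosomes, all within their GRCm38 lengths, and the 10 RefSeq promoter records of these genes equalled the genome sequence. The NF-kB consensus had 10 bases with degenerate positions and was sought on both strands. Merging, calling and motif search were checked on simulated data. Python 3.11.15, NumPy 2.4.6, SciPy 1.17.1 and Matplotlib 3.10.9 were used. The genes, lists and thresholds were chosen with earlier results of these data known. Named regions were, for each gene, that nearest the TSS, the 3 strongest of those missing from a list, and the largest changes among regions in all 4 lists. Others were singled out after their values were seen.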

Additional observations from a re-analysis of the deposited data

How the results depend on the processing

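The counts of regions follow the window, and the main values were 140 regions, 23 LPS-gained, 13 LPS-lost, 22 T0-lost, 2 T0-gained, 13 lost and 4 gained in T0-LPS against LPS, and 15 LPS-gained with a T0-LPS peak. Within 50 kb there were 80 regions, 7 LPS-lost, 10 T0-lost, 1 T0-gained, 7 lost and 2 gained in T0-LPS. Within 10 kb there were 34 regions, 9 LPS-gained, 7 of them with a T0-LPS peak, 3 LPS-lost, 5 T0-lost, 0 T0-gained, 3 lost and 1 gained in T0-LPS. With only regions nearest to the gene's own TSS there were 78 regions, 7 LPS-lost, 10 T0-lost, 1 T0-gained, 8 lost and 1 gained in T0-LPS. With scores of at least 200 there were 15 LPS-gained, 1 T0-gained and 1 gained in T0-LPS. With lists of equal length (29839 peaks) there were 7 LPS-lost, 6 T0-lost, 11 T0-gained and 9 gained in T0-LPS, so the excess of T0 losses over gains rested on list length. Without missing peaks that had room for a removed peak, an alternative chosen after seeing the data, there were 8 LPS-lost, 1 T0-gained and 2 gained in T0-LPS.

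The median percentile change with LPS was 2.54 points when ranked among regions in all 4 lists and -0.18 with summed scores, against 0.07. With T0 it was 0.0397 among regions in all 4 lists and -5.82 within 10 kb, against -8.84, and for T0-LPS against LPS it was 0.85 among regions in all 4 lists, against -2.45. The share of LPS-gained regions with an NF-kB consensus was 69.6% with 1 mismatch (interval 49.1 to 84.4%), against 54.5% of all LPS-gained regions. That interval included the background, whereas the interval of the main share (22.2 to 59.2%) lay above its background of 18.1%. All other alternatives left the values within 1.5 times the main count or within the interval of the median. No paired analysis was possible because each group was deposited as 1 pooled list.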
